A study of Mus musculus with 22 samples.

Results

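The genes described here encode 2 signalling pairs and the receptors that belong to them: the chemokine Cxcl12 with its receptors Cxcr4 and Ackr3, and the peptides Apln and Apela with their receptor Aplnr. They were chosen by name, after it was known from these data that Cxcl12 and Aplnr led the change of wild-type Chiron gastruloids between 96 h and 120 h and that Cxcl12 stood among the leading genes between Activin A and Chiron gastruloids at 120 h. All 6 were found among the 55055 genes that the 4 count tables share. The values of those comparisons are therefore given as a description, with no test. Other comparisons of the Chiron 96 h or wild-type Activin A 120 h libraries share them with those that served the choice.

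The study compared mouse embryonic stem (mES) cells of genotype wt with cells labelled Hox-/-, which the series describes as having no Hox function, and cultures grown from both. Hox genes encode transcription factors that set position along the body axis. The data are RNA-seq counts from 22 libraries in 10 groups. mES cells of each genotype (2 libraries each) were kept in serum with LIF at 100 ng/ml, the GSK-3 inhibitor CHIR99021 at 3 µM and the MEK inhibitor PD0325901 at 1 µM. Adherent endoderm cultures (3 libraries per genotype) received 100 ng/ml Activin A, a ligand of the Nodal pathway, with 3 µM CHIR99021 at 24 h and again at 72 h, and were collected at 120 h. Gastruloids, which are stem cell aggregates that model parts of the early embryo, were labelled Activin A gastruloids (wt and Hox-/-) or Chiron gastruloids (wt alone) and had 2 libraries per group, collected at 96 h or at 120 h. Their doses are not given in the sources used here, and the labels call the cells of all differentiated cultures mixed. Titles of Hox-/- samples carry the letters BADC. The labels name no clone, so genotype and cell line cannot be told apart, and they do not say that replicates came from separate cultures, so p-values measure the spread between these libraries, which may be technical.

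Cxcl12 is a secreted chemokine that attracts cells carrying the G protein-coupled receptor Cxcr4. Ackr3, an atypical receptor, binds Cxcl12 and removes it from the surroundings, which shapes its gradient. Cxcr4 is widely used as a surface marker of definitive endoderm made from stem cells, and both receptors act in migrating cells of the gastrula. Apln and Apela (also called Toddler or Elabela) are short secreted peptides that both bind Aplnr, a G protein-coupled receptor of early mesoderm and of vessels. Apela is the earlier-acting ligand in the embryo, is made by pluripotent cells, and is needed for normal movement of mesendoderm cells.

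Libraries held 9.11 to 28.8 M (mega) counts. The 96 h libraries held 15 to 28.8 M and the 120 h gastruloid libraries 9.11 to 11.9 M, so depth went with time in the gastruloids. A group whose libraries all held 3 counts or fewer of a gene is called at the floor, which lay at 0.104 to 0.329 CPM (counts scaled to a library total of 1 M) and, like any such limit, covers counting error only. The 39 Hox genes summed to 0.448 to 1.34 CPM in Hox-/- mES cells against 30.4 to 35.7 CPM in wild type. In Hox-/- endoderm cultures they summed to 22.5 to 28.6 CPM against 829 to 877 CPM, and in Hox-/- Activin A gastruloids to 63.8 to 103.8 CPM against 625 to 1190 CPM, so they were lower but not at 0 there. Pluripotency markers summed to 6768 to 7136 CPM in the 4 mES libraries.

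Cxcl12 lies on chromosome 6 (mm10, 117168535 to 117181367, plus strand), Cxcr4 on chromosome 1 (128588199 to 128592293, minus strand), and Ackr3 on the same chromosome (90203980 to 90216751, plus strand). Apln lies on chromosome X (48025146 to 48034853, minus strand), Apela on chromosome 8 (65028417 to 65037336, minus strand) and Aplnr on chromosome 2 (85136225 to 85139923, plus strand). Apela overlaps the gene model Gm45886 on the same strand, which held 0 counts in all 22 libraries, and the other 5 genes overlap no annotated gene. The 250 bases before the start of 3 genes are printed here, from RefSeq on GRCm38.p6 (the mm10 build) and in the direction of the gene, because Cxcr4 and Ackr3 were the pair of genes that differed most between genotypes at 96 h and Cxcl12 reached the highest FPKM of the 6. Capitals mark every match to the motifs searched, on either strand.
Cxcr4, chr1:128592300-128592549, minus strand: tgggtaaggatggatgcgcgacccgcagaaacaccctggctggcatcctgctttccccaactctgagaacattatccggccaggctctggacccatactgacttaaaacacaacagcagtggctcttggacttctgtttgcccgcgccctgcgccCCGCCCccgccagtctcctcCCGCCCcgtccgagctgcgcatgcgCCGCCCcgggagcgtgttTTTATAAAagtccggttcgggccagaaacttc
Ackr3, chr1:90203730-90203979, plus strand: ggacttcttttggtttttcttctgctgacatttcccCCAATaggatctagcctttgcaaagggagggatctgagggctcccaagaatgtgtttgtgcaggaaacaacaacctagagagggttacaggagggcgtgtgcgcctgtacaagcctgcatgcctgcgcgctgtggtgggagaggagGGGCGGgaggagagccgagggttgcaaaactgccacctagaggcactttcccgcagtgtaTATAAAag
Cxcl12, chr6:117168285-117168534, plus strand: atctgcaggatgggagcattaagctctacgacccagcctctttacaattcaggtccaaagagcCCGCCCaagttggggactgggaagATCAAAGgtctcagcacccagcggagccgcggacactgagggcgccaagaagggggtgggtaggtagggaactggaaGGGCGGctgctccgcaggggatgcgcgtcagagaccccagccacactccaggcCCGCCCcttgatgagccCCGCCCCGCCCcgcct

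In all, 8 motifs were searched. For general promoter elements the letters were TATAAA for the box of that kind, GGGCGG for the GC box bound by Sp factors, and CCAAT for the box bound by NF-Y. For signalling, ACGTG stood for the core of hypoxia response elements, CTTTGAN for the core bound by TCF and LEF factors, and AATNCACA for that bound by FoxH1. For Hox proteins, TGATTNAT stood for the shared core with Pbx, and TTTATNG for the core of posterior Hox and Cdx factors. A match is a description of the letters, not a site. The Cxcr4 and Ackr3 stretches both hold TATAAA, which 12.4% of 32851 promoter stretches of this length hold on either strand; Cxcr4 has 2 overlapping matches that begin 32 and 30 bases before the start, and Ackr3 has 1 that begins 8 bases before it. Cxcr4 has 3 GC boxes, Ackr3 has 1 and Cxcl12 has 5, and 32.7% of promoters hold at least 1. Cxcl12 alone of the 5 genes with an entry (all but Aplnr) has a TCF/LEF core match, 163 bases before the start; 13.8% of promoters have one. None of the 5 stretches holds the letters of the Pbx-Hox core (2.82% of promoters do), the posterior Hox and Cdx core (9.81%), the FoxH1 core (3.18%) or the hypoxia-response core (16.6%). Apela and Ackr3 have 1 CCAAT match each, which 33.8% of promoters hold, and Apln has 1 GC box.

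Between genotypes, the gene whose level differed most depended on the culture. In Activin A gastruloids at 96 h, Cxcr4 was 7.61-fold and Ackr3 9.52-fold lower in Hox-/- than in wild type. At 120 h the Cxcr4 difference was no longer called, and Apela was 17.2-fold and Cxcl12 2.4-fold lower. In endoderm cultures, Cxcl12 was 2.08-fold higher in Hox-/-, and Apela was 2.97-fold lower. A gene is called where edgeR's quasi-likelihood test gave a Benjamini-Hochberg adjusted p under 0.05 over all genes tested. By that rule 1 of the 3 genes tested in mES cells was called (lower), against 23.2% of all genes tested, and Cxcl12, Apln and Aplnr did not pass the filter on low counts there. In endoderm cultures 5 of 6 were called (1 higher, 4 lower), against 46.2% of genes. With Activin A, 5 of 6 were called at 96 h (all 5 lower) against 38.9%, and 4 of 6 at 120 h (all 4 lower) against 50.4%. The wild-type libraries at 120 h also served the choice of Cxcl12. The median log2 fold change of the 6 genes was -0.52, -0.47 and -0.60 in these 3 comparisons, against 0.00, 0.03 and -0.02 over all genes tested. With so many genes called in each comparison, the counts say little about these 6 as a set, and the sizes below carry the description.

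**Figure D1:**
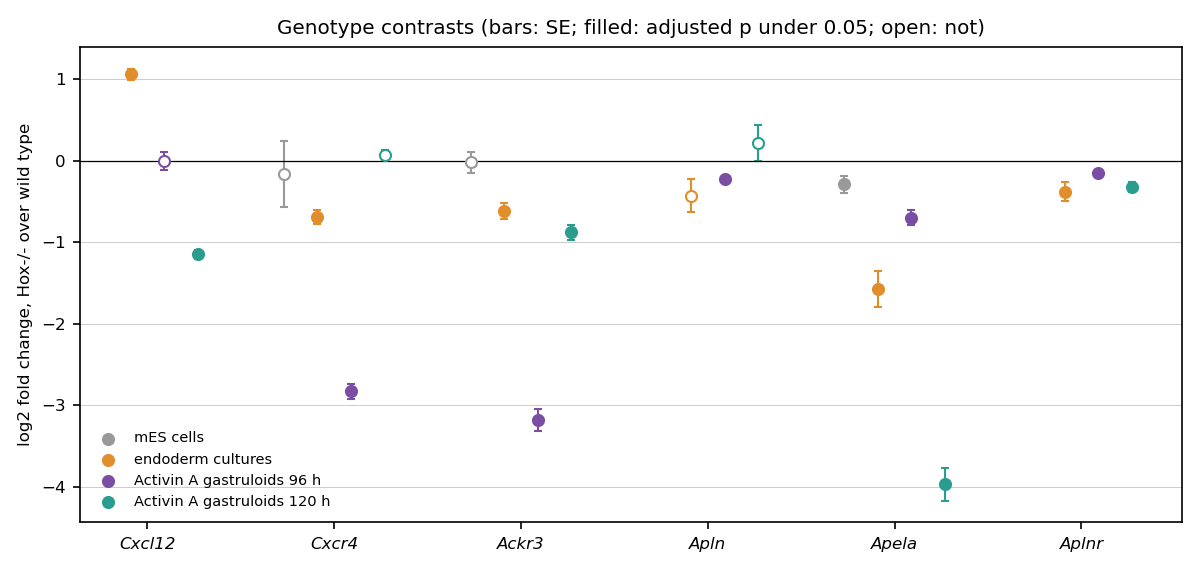
Log2 fold change of Hox-/- over wild type (y axis) for each gene (x axis) in mES cells, endoderm cultures and Activin A gastruloids at 96 h and 120 h, with SE bars; filled points have an adjusted p under 0.05 and open points do not. Cxcr4 and Ackr3 at 96 h (-2.83 and -3.18) and Apela at 120 h (-3.97) lie lowest, and Cxcl12 lies above 0 in endoderm cultures (1.06) and below it in gastruloids at 120 h (-1.15).

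Between 96 h and 120 h with Activin A, the test called 5 of 6 genes in wild type (3 higher at 120 h, 2 lower; 74.9% of all genes were called) and 6 of 6 in Hox-/- (3 higher, 3 lower; 72.4%). The effect of time differed between genotypes, by the interaction test, for Cxcl12, Cxcr4, Ackr3 and Apela (4 of 6, against 38.9% of genes). The wild-type time count and the interaction count use the wild-type 120 h libraries that served the choice, so nothing is read from either count. In the 96 h treatment comparison, Activin A against Chiron, 6 of 6 were called (4 higher with Activin A, 2 lower; 61.6% of genes), but this comparison uses the Chiron 96 h libraries that served the choice, so nothing is read from that count. Endoderm cultures differed from mES cells in 6 of 6 genes in each genotype (5 higher, 1 lower; 79.9% of genes in wild type and 80.6% in Hox-/-), and that effect differed between genotypes for 3 of 6 (24.1% of genes). In the comparisons that had served to choose the genes, a fitted change of at least 2-fold is only counted: Activin A against Chiron at 120 h had 3 higher and 1 lower (18.1% of all genes passed that size), Chiron gastruloids at 120 h against 96 h had 1 higher and 3 lower (23.9%), and the treatment by time difference had 2 higher and 2 lower (22.5%). Nothing is read from those last counts.

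**Figure D2:**
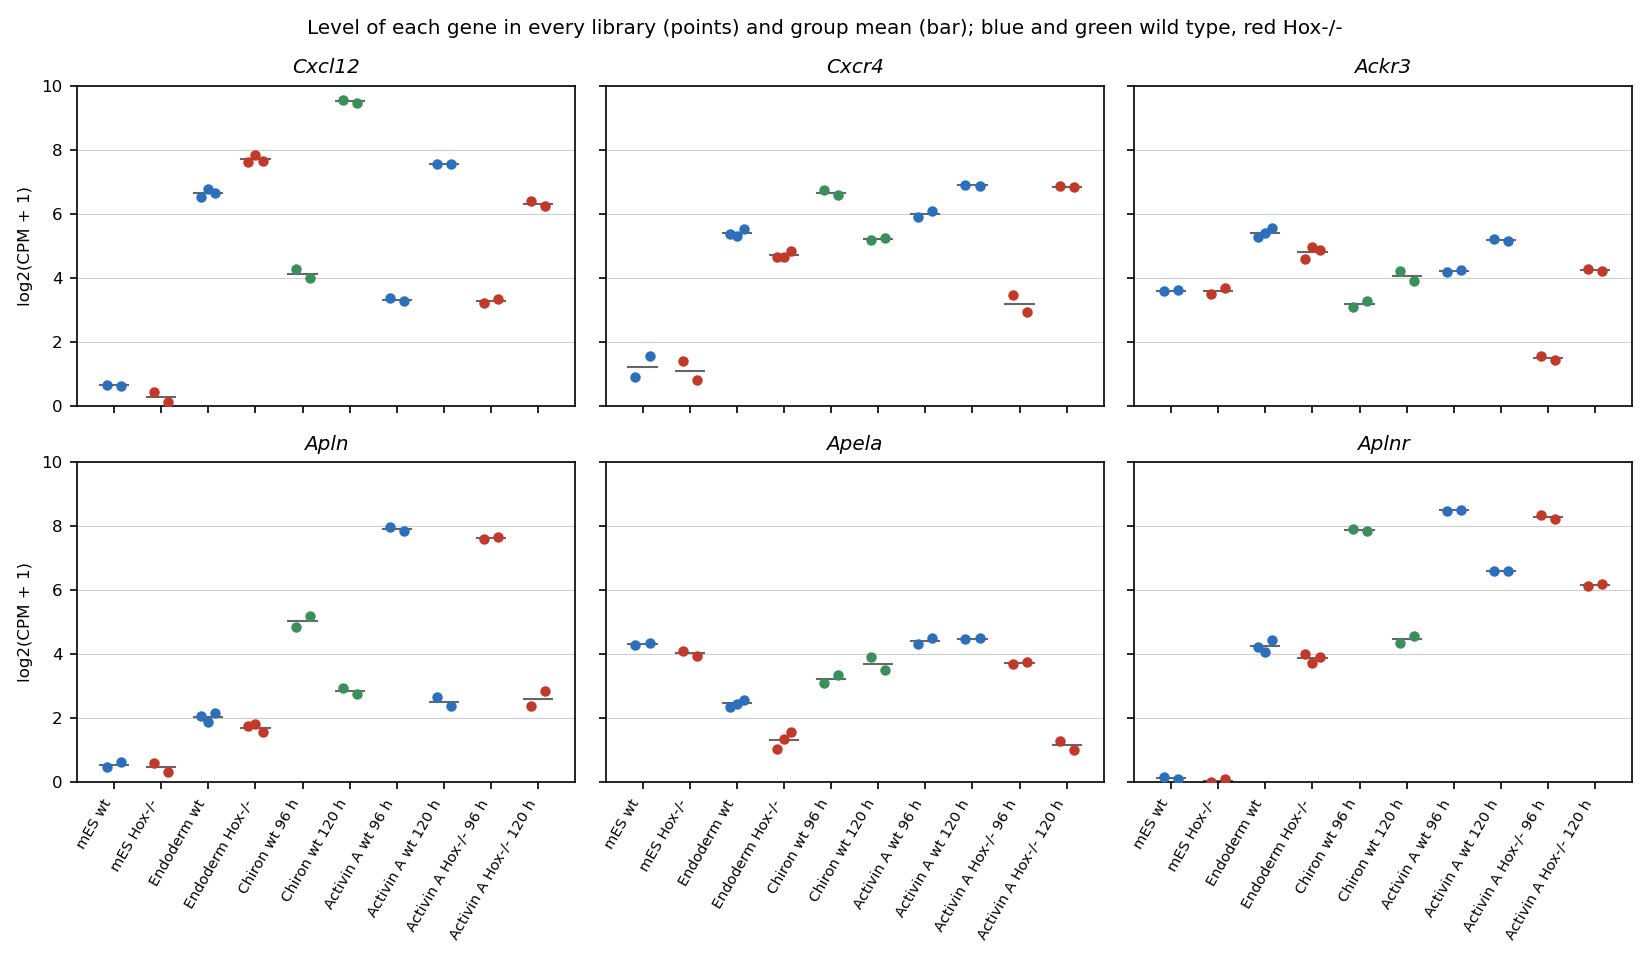
Log2(CPM + 1) of each gene (y axis) in every library (points) of the 10 groups (x axis), with the mean of the plotted values as a short line; wild-type groups are blue (green for Chiron) and Hox-/- groups red. Cxcl12 is highest in Chiron gastruloids at 120 h, Aplnr and Apln are high at 96 h, and Cxcr4 and Ackr3 drop in Hox-/- Activin A gastruloids at 96 h.

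Cxcl12, the chemokine, ranged from a mean of 0.229 CPM in Hox-/- mES cells to 733 CPM in Chiron gastruloids at 120 h, a ratio of 3204 that rests on 5 and 1 counts at the low end. In mES cells it stood at 0.598 and 0.544 CPM in wild type and at 0.374 and 0.084 CPM in Hox-/-. Endoderm cultures held 91.8, 110.3 and 100.2 CPM in wild type and 197, 229.9 and 202 CPM in Hox-/-. All 3 Hox-/- libraries thus lay above all 3 wild-type ones, with a log2 fold change of 1.06 (SE 0.0704, edgeR adjusted p 2.82e-08). Activin A gastruloids at 96 h held 9.38 and 8.72 CPM in wild type and 8.42 and 9.16 CPM in Hox-/-. These overlapped and were not called (log2 fold change 0.00, SE 0.109, edgeR adjusted p 0.983). At 120 h they held 189.6 and 189.8 CPM in wild type against 83.4 and 75 CPM in Hox-/-. The Hox-/- level was lower there in both libraries (log2 fold change -1.15, SE 0.0529, edgeR adjusted p 2.18e-24). The wild-type libraries of that comparison also served the choice of Cxcl12, so the p-value is not independent of the choice. The direction was opposite to that in endoderm cultures, also collected at 120 h, and that difference was not tested.

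Cxcl12 was higher at 120 h than at 96 h in every gastruloid series. It rose 21-fold in wild-type Activin A gastruloids (log2 fold change 4.32, SE 0.0662, edgeR adjusted p 2.96e-45) and 9.01-fold in Hox-/- ones (3.17, SE 0.0802, edgeR adjusted p 4.04e-36). The rise was smaller in Hox-/- by 1.15 on the log2 scale (interaction -1.15, SE 0.124, edgeR adjusted p 8.56e-11). The wild-type rise and the interaction use the wild-type 120 h libraries that served the choice, so their p-values are not independent of it. Wild-type Chiron gastruloids held 18.5 and 15 CPM at 96 h and 755 and 711 CPM at 120 h. These values served to choose the gene, and the 43.8-fold difference is given without a test, as is the 3.86-fold higher level with Chiron than with Activin A at 120 h. At 96 h it was 1.85-fold lower with Activin A than with Chiron, also given without a test because the Chiron 96 h libraries served the choice. Against mES cells, endoderm cultures were 177-fold higher in wild type and 917-fold higher in Hox-/-. The Hox-/- value is loose: its fitted log2 change ran from 9.02 to 11.06 as mES Hox-/- replicate 2 or 1 was left out. The difference between those effects, 2.33 (SE 0.737, edgeR adjusted p 0.024), rests on 1 to 9 counts per mES library and was lost without mES Hox-/- replicate 2 (1.69, adjusted p 0.141) or without either wild-type mES library (2.24 and 2.40, adjusted p 0.118 and 0.0641). Without mES Hox-/- replicate 1 it was 3.73.

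Cxcr4, the signalling receptor of Cxcl12, was lowest in mES cells, at 0.863 and 1.94 CPM in wild type and 1.64 and 0.756 CPM in Hox-/-. Endoderm cultures held 40.2, 38.6 and 44.9 CPM in wild type and 24.5, 24.2 and 27.7 CPM in Hox-/-. The Hox-/- libraries were all lower, by 0.69 on the log2 scale (SE 0.0807, edgeR adjusted p 9.26e-06). Activin A gastruloids at 96 h held 59.5 and 67.3 CPM in wild type against 10.1 and 6.62 CPM in Hox-/-. The groups did not overlap, with a log2 fold change of -2.83 (SE 0.0869, edgeR adjusted p 1.44e-31), although the Hox-/- libraries themselves differed with a coefficient of variation of 29.1%. At 120 h wild type held 120.4 and 117 CPM and Hox-/- 116.8 and 113.7 CPM. The Hox-/- values were 1.03-fold lower in CPM and did not overlap those of wild type, but the fitted change was 0.07 (SE 0.0607, edgeR adjusted p 0.365) and took the other sign with scaling by total counts alone (-0.04). Cxcr4 was therefore separated by genotype at 96 h and not called at 120 h.

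The rise of Cxcr4 between 96 h and 120 h was 1.87-fold in wild-type Activin A gastruloids (log2 fold change 0.83, SE 0.0597, edgeR adjusted p 2.53e-17) and 13.8-fold in Hox-/- ones (3.72, SE 0.0854, edgeR adjusted p 5.51e-38). The rise was larger in Hox-/- by 2.90 on the log2 scale (SE 0.109, edgeR adjusted p 2.37e-27). In Chiron gastruloids Cxcr4 stood at 105.9 and 96.1 CPM at 96 h and at 35.9 and 37.3 CPM at 120 h, with no overlap. Activin A libraries were lower than Chiron ones at 96 h (log2 fold change -0.73, SE 0.0626, edgeR adjusted p 5.22e-10). At 120 h they were 3.24-fold higher, which is given without a test.

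Ackr3, the receptor that clears Cxcl12, was already present in mES cells, at 11.1 and 11.3 CPM in wild type and 10.2 and 11.9 CPM in Hox-/-, which overlapped. It was highest in wild-type endoderm cultures, with 38, 41.6 and 46.5 CPM, against 23.2, 30.6 and 28.3 CPM in Hox-/- ones. All 3 Hox-/- libraries were lower (log2 fold change -0.62, SE 0.0987, edgeR adjusted p 0.00016). In Activin A gastruloids at 96 h, wild type held 17.3 and 18 CPM and Hox-/- 1.96 and 1.74 CPM, the lowest level of the 10 groups. That difference, -3.18 on the log2 scale (SE 0.14, edgeR adjusted p 4.61e-25), was the largest of the 6 genes at 96 h. At 120 h wild type held 36.4 and 34.9 CPM and Hox-/- 18.4 and 17.6 CPM, still with no overlap (log2 fold change -0.88, SE 0.097, edgeR adjusted p 7.56e-11). Ackr3 rose 2.02-fold with time in wild type and 9.71-fold in Hox-/- (interaction 2.30, SE 0.186, edgeR adjusted p 9.75e-15). Its level thus came closer between genotypes with time, and stayed lower in Hox-/-.

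In Chiron gastruloids Ackr3 stood at 7.64 and 8.85 CPM at 96 h and at 17.8 and 14 CPM at 120 h. Wild-type Activin A gastruloids were 2.14-fold higher than Chiron ones at 96 h (log2 fold change 1.02, SE 0.107, edgeR adjusted p 1.56e-08), the opposite direction to Cxcr4 and Cxcl12 in the same comparison. Against mES cells, endoderm cultures were 3.76-fold higher in wild type and 2.47-fold higher in Hox-/-. The difference between those effects was -0.57 (SE 0.186, edgeR adjusted p 0.0297), and it was lost when endoderm Hox-/- replicate 1 (adjusted p 0.0517), mES Hox-/- replicate 2 (0.166) or wild-type mES replicate 1 or 2 (0.0868 and 0.0786) was left out.

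**Figure D3:**
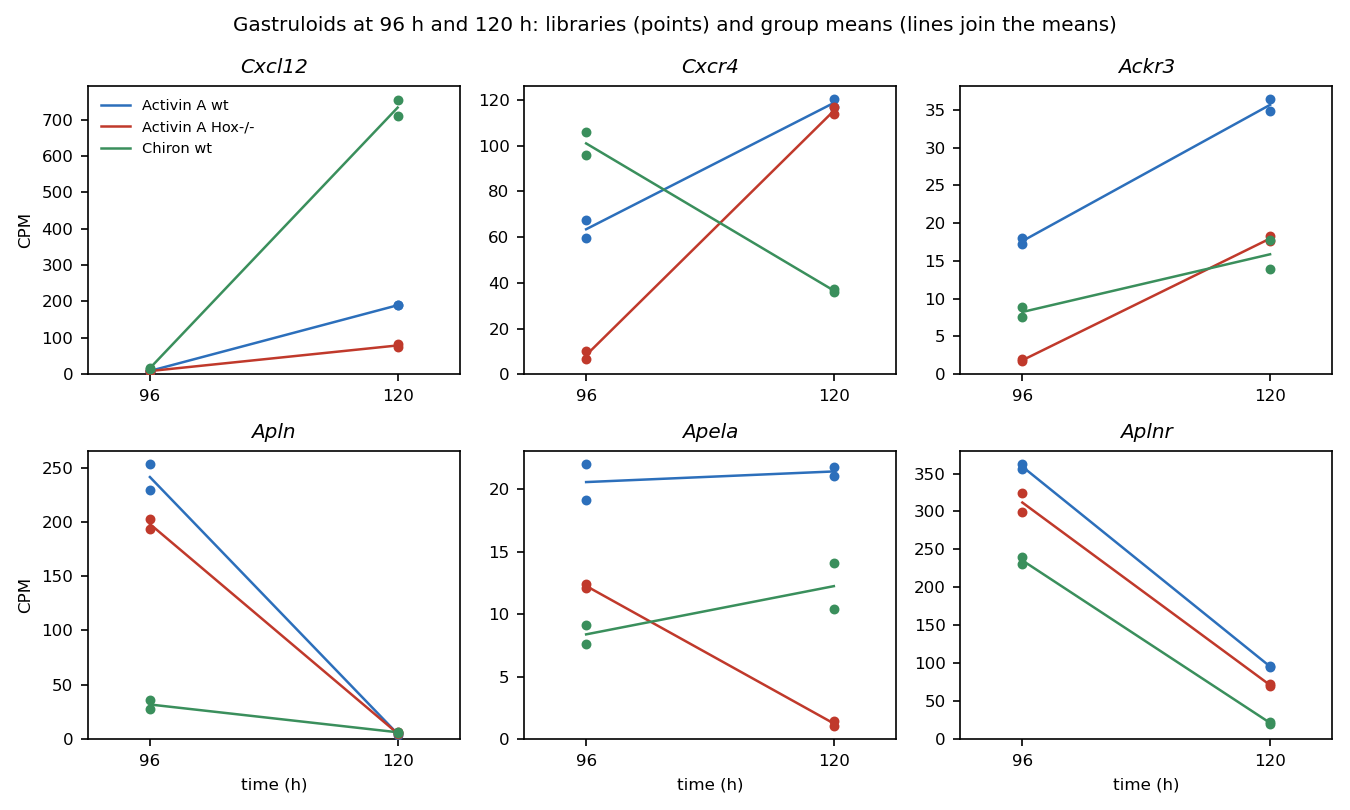
CPM of each gene (y axis, from 0, scaled per panel) at 96 h and 120 h (x axis) in gastruloids; points are libraries and lines join group means. Cxcr4 of Hox-/- Activin A gastruloids climbs from a mean of 8.34 to 115.3 CPM, beside 118.7 CPM in wild type, Apela of the same group falls from 12.3 to 1.25 CPM while wild type stands at 20.6 and 21.4 CPM, and Apln is lower at 120 h in all 3 series.

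Apln, the apelin peptide, was a 96 h gene in these libraries. Wild-type Activin A gastruloids held 253 and 229.6 CPM at 96 h and 5.41 and 4.17 CPM at 120 h, a 50.4-fold fall (log2 fold change -5.73, SE 0.0934, edgeR adjusted p 4.33e-44). Hox-/- ones held 193 and 203 CPM at 96 h and 4.22 and 6.17 CPM at 120 h, a 38.1-fold fall (-5.27, SE 0.0906, edgeR adjusted p 1.92e-43). The fall was the largest change with time of the 6 genes in either genotype, and its difference between genotypes was not called (interaction 0.45, SE 0.222, edgeR adjusted p 0.105). It was called with no filter on low counts (0.53, adjusted p 0.0467), without Hox-/- 120 h replicate 1 (0.71, adjusted p 0.0277) and without wild-type 96 h replicate 2 (0.52, adjusted p 0.047). At 96 h the Hox-/- libraries lay below the wild-type ones (log2 fold change -0.23, SE 0.0431, edgeR adjusted p 1.67e-05), a call that limma on the authors' FPKM did not make (adjusted p 0.345 and 0.271). At 120 h the groups overlapped (0.22, SE 0.218, edgeR adjusted p 0.432).

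Chiron gastruloids held less Apln at 96 h, 27.9 and 35.8 CPM, and 6.71 and 5.83 CPM at 120 h. Activin A gastruloids were 7.58-fold higher than Chiron ones at 96 h (log2 fold change 2.84, SE 0.0778, edgeR adjusted p 1.37e-19), the largest treatment difference of the 6 genes at that time. Endoderm cultures held 3.16, 2.7 and 3.5 CPM in wild type and 2.39, 2.52 and 1.95 CPM in Hox-/-. The Hox-/- values were lower in all 3 libraries, but the difference was not called (-0.43, SE 0.203, edgeR adjusted p 0.0942). mES cells held 0.398 and 0.544 CPM in wild type and 0.523 and 0.252 CPM in Hox-/-, which is 3 to 7 counts per library.

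Apela, the other Aplnr ligand, was the one gene of the 6 that was lower in endoderm cultures than in mES cells. mES cells held 18.4 and 19.3 CPM in wild type and 16.4 and 14.3 CPM in Hox-/-. The Hox-/- libraries were lower (log2 fold change -0.29, SE 0.109, edgeR adjusted p 0.0468), a call that did not hold under DESeq2 (0.322), without the filter (0.0552), on FPKM with limma (0.0521 and 0.0996), or without mES Hox-/- replicate 2 (0.247) or wild-type mES replicate 1 (0.133) or 2 (0.212). Endoderm cultures held 4.14, 4.49 and 4.96 CPM in wild type and 1.08, 1.54 and 1.95 CPM in Hox-/-. The groups did not overlap (-1.57, SE 0.223, edgeR adjusted p 5.35e-05). It was larger than the genotype difference in mES cells by 1.25 on the log2 scale (interaction -1.25, SE 0.237, edgeR adjusted p 0.000584).

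In Activin A gastruloids, wild-type Apela stood at 19.1 and 22 CPM at 96 h and 21.1 and 21.7 CPM at 120 h, which overlapped (log2 fold change -0.02, SE 0.0974, edgeR adjusted p 0.849). Hox-/- gastruloids held 12.1 and 12.4 CPM at 96 h and 1.47 and 1.03 CPM at 120 h, which is 17 and 11 counts. Apela was thus lower in Hox-/- at 96 h (-0.70, SE 0.0931, edgeR adjusted p 1.8e-08). At 120 h it was lower again, and by more (-3.97, SE 0.202, edgeR adjusted p 1.03e-22), the largest genotype difference of the 6 genes in any culture. It fell 9.82-fold with time in Hox-/- (-3.29, SE 0.209, edgeR adjusted p 1.64e-19), and the effect of time differed between genotypes (interaction -3.27, SE 0.241, edgeR adjusted p 4.53e-16). Chiron gastruloids held 7.59 and 9.16 CPM at 96 h and 14.1 and 10.4 CPM at 120 h. Activin A gastruloids were 2.45-fold higher than Chiron ones at 96 h (1.22, SE 0.115, edgeR adjusted p 2.81e-09).

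Aplnr, the receptor of both peptides, was at the floor in mES cells of both genotypes, with 2 and 1 counts in wild type and 0 and 1 in Hox-/-. Endoderm cultures held 17.6, 15.9 and 20.9 CPM in wild type and 15.1, 12.3 and 14 CPM in Hox-/-, at least 83.8-fold and at least 58-fold above mES cells. The genotype difference in endoderm cultures was small (log2 fold change -0.38, SE 0.114, edgeR adjusted p 0.0137) and was not called without Hox-/- replicate 2 (0.0582) or wild-type replicate 3 (0.0608), or on FPKM with limma (0.0596 and 0.132). Activin A gastruloids at 96 h held the most, 356 and 363 CPM in wild type and 325 and 299 CPM in Hox-/-. The Hox-/- libraries lay below wild type by 0.15 on the log2 scale (SE 0.0379, edgeR adjusted p 0.00131), a call lost without Hox-/- 96 h replicate 2 (0.0771). At 120 h wild type held 95.1 and 96.2 CPM and Hox-/- 69.4 and 72.9 CPM, again with no overlap (-0.32, SE 0.059, edgeR adjusted p 1.08e-05). Both genotype differences in gastruloids were small beside the change with time.

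Aplnr fell 3.75-fold between 96 h and 120 h in wild-type Activin A gastruloids (log2 fold change -1.98, SE 0.0469, edgeR adjusted p 4.07e-37) and 4.38-fold in Hox-/- ones (-2.15, SE 0.0485, edgeR adjusted p 2.56e-38). The difference between those falls was not called (interaction -0.17, SE 0.0701, edgeR adjusted p 0.0535), and it was called with scaling by total counts alone (adjusted p 0.00812), with a filter of at least 10 counts in every library (0.0419), and without Hox-/- 96 h replicate 2 (0.00783). Chiron gastruloids held 241 and 230.4 CPM at 96 h and 19.6 and 23 CPM at 120 h, an 11-fold lower level that served to choose the gene and has no test. Activin A gastruloids were 1.53-fold higher than Chiron ones at 96 h and 4.49-fold higher at 120 h, both given without a test because Chiron libraries of these times served the choice. Apln and Aplnr, ligand and receptor, were thus both lower at 120 h than at 96 h in every gastruloid series, while Cxcl12 was higher in all 3.

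The order of the 10 group means was read from CPM, and neighbours were called separated where their libraries did not overlap and their means differed by more than the sum of the SDs. By that rule 39 of 54 neighbouring pairs were separated. These were 8 of 9 for Cxcl12, 7 for Cxcr4, 6 for Ackr3, 6 for Apln, 5 for Apela and 7 for Aplnr. The share over all genes was not computed, so nothing is read from these counts. The levels are counts over each library's own total and come from separate tables. Apart from endoderm against mES cells, levels were not tested across these tables. For Cxcl12, wild-type and Hox-/- Activin A gastruloids at 96 h were not separated. For Cxcr4 the top pair, wild-type and Hox-/- Activin A gastruloids at 120 h, was not separated, nor were the mES groups. Ackr3 did not separate among Hox-/- 120 h, wild-type 96 h and Chiron 120 h gastruloids, nor between the mES groups. For Apln the 3 gastruloid groups of 120 h were not separated, nor the mES groups. Apela did not separate among the wild-type Activin A gastruloids of both times and wild-type mES cells, between Hox-/- 96 h and Chiron 120 h gastruloids, or between the lowest groups, Hox-/- endoderm and Hox-/- 120 h gastruloids. Aplnr of Chiron gastruloids at 120 h and wild-type endoderm was not separated, nor that of the mES groups. The top group of Cxcr4 became Hox-/- Activin A gastruloids at 120 h, and that of Apela wild-type mES cells, with TMM or RLE factors or in FPKM.

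Levels of different genes were compared in the authors' FPKM, which divides by transcript length. In mES cells Apela was the highest of the 6, at 41.8 ± 1.01 FPKM (SD, n = 2) in wild type and 33.4 ± 0.948 FPKM in Hox-/-, while Ackr3 was at 3.56 ± 0.031 FPKM in wild type. At 96 h, Aplnr led in Activin A gastruloids, at 92 ± 1.04 FPKM in wild type and 78.8 ± 4.14 FPKM in Hox-/-, followed by Apln at 72.8 ± 5.18 and 58.8 ± 2.38 FPKM. In Chiron gastruloids of that time Cxcr4 led, at 72.6 ± 4 FPKM, before Aplnr at 60.6 ± 1.84 FPKM. At 120 h, Cxcr4 led in Activin A gastruloids of both genotypes (86.3 ± 1.74 and 87.3 ± 3.87 FPKM), and Cxcl12 led in Chiron gastruloids (191.5 ± 10.5 FPKM). Endoderm cultures had Cxcr4 and Cxcl12 at overlapping levels in wild type (31.5 ± 3.35 and 29.7 ± 2.43 FPKM, n = 3) and Cxcl12 above Cxcr4 in Hox-/- (61.8 ± 4.75 against 18.8 ± 1.78 FPKM). The leading gene thus changed from the apelin receptor and ligand to the Cxcl12 pair between 96 h and 120 h in Activin A gastruloids of both genotypes.

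**Figure D4:**
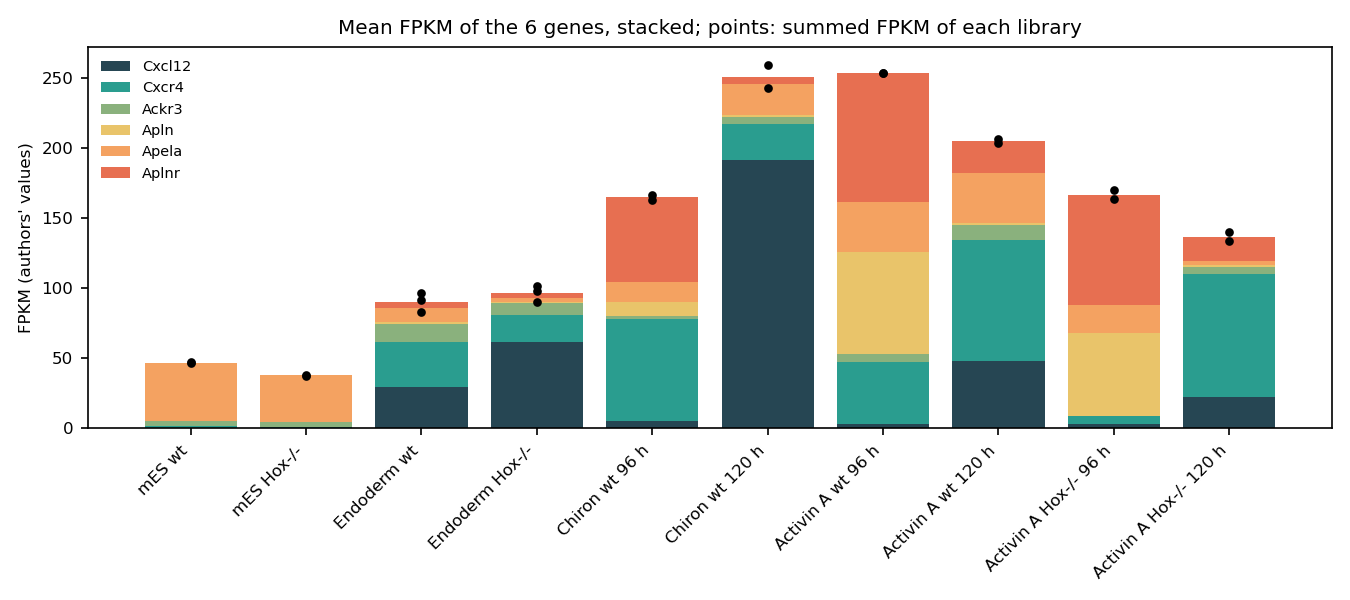
Mean FPKM of the 6 genes stacked by group (y axis, the authors' values; x axis, the 10 groups), with the summed FPKM of each library as points; the tables were normalized separately. Apela fills most of the mES bars, Aplnr and Apln most of the 96 h Activin A bars, and Cxcl12 most of the Chiron 120 h bar, where the sum was 242 to 259 FPKM.

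Ratios within a library need no scaling between libraries. Cxcl12 over Cxcr4 in FPKM was 0.83 to 1.08 in wild-type endoderm cultures and 2.91 to 3.76 in Hox-/- ones, so each Hox-/- library had more ligand than receptor transcript. In Chiron gastruloids the ratio was 0.0677 to 0.0734 at 96 h and 6.9 to 8.08 at 120 h. In wild-type Activin A gastruloids it was 0.0608 to 0.0709 and then 0.55 to 0.57. In Hox-/- Activin A gastruloids the order was the other way round, 0.376 to 0.716 at 96 h and 0.25 to 0.262 at 120 h. The time direction of the ratio therefore differed between genotypes in every library, and it was not tested as a ratio. Cxcr4 over Ackr3 was 8.33 to 8.58 in wild-type and 16 to 16.5 in Hox-/- Activin A gastruloids at 120 h, and overlapped at 96 h (7.97 to 8.38 and 8.04 to 11.7).

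Of the 2 Aplnr ligands, Apela exceeded Apln 281 to 342 times in wild-type mES cells, where Apln stood at 6 and 7 counts. Apln exceeded Apela only in Activin A gastruloids at 96 h, 1.89 to 2.24 times in wild type and 2.8 to 3.14 times in Hox-/-. At 120 h Apela was 24.5 to 32.1 times Apln in wild type and 1.43 to 1.81 times in Hox-/-. The summed ligands over Aplnr were 1.62 to 1.66 in wild-type and 0.2 to 0.245 in Hox-/- Activin A gastruloids at 120 h, with no overlap. At 96 h they were 1.14 to 1.21 and 0.948 to 1.05.

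**Figure D5:**
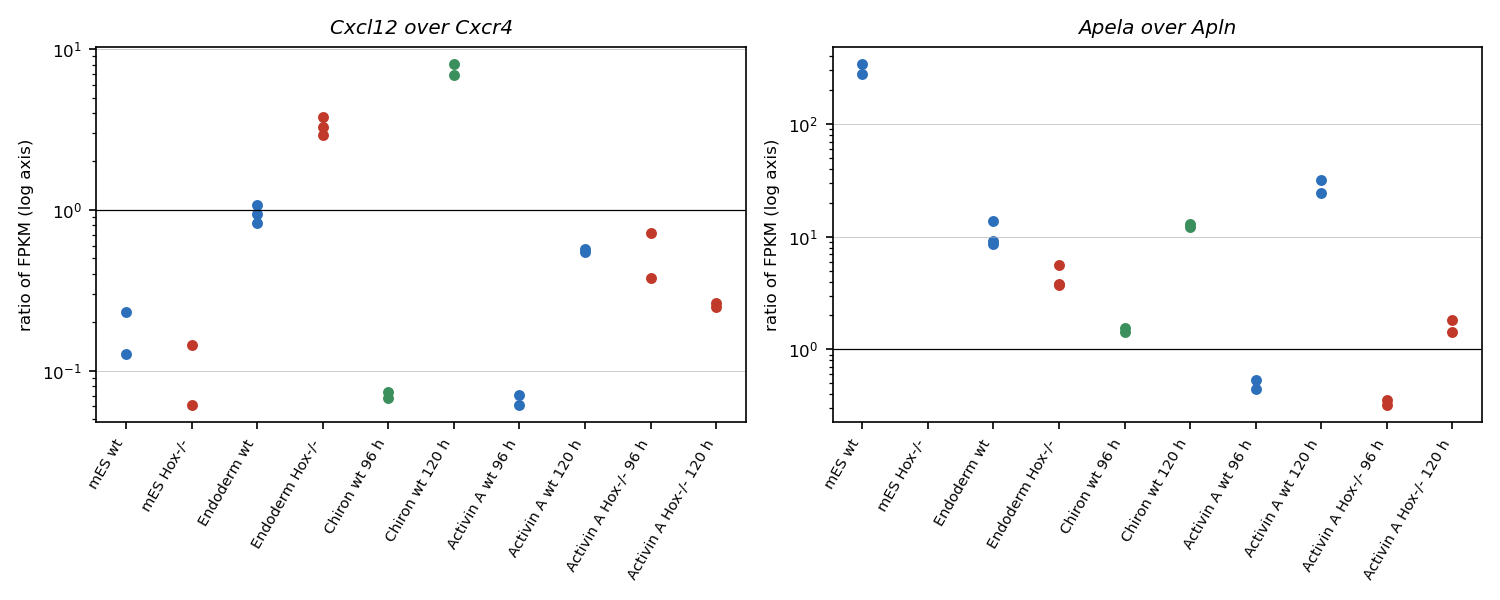
Ratio of FPKM within each library (y axis, log scale; points are libraries, x axis the groups; the line marks equal values) for Cxcl12 over Cxcr4 (left) and Apela over Apln (right). Hox-/- mES cells are left out of the right panel because 1 library has Apln under 0.1 FPKM, and the Cxcl12 ratios of mES cells rest on 1 to 9 counts. Chiron gastruloids at 120 h (6.9 to 8.08) and Hox-/- endoderm cultures (2.91 to 3.76) lie above equality on the left.

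The libraries are bulk samples of mixed cells, so fewer cells of a type and less RNA per cell cannot be told apart. Of all genes tested, 46.2% were called between genotypes in endoderm cultures, 38.9% in Activin A gastruloids at 96 h and 50.4% at 120 h. The marker counts below stand beside these shares. Markers of definitive endoderm (8 genes, among them Sox17 and Foxa2) moved with genotype. They summed to 317 to 340 CPM in wild-type and 149.3 to 164.1 CPM in Hox-/- endoderm cultures, with 8 of 8 called lower. In Activin A gastruloids they summed to 635 to 715 CPM against 167 to 172 CPM at 96 h (7 of 8 lower) and to 557 to 571 CPM against 53.4 to 56.6 CPM at 120 h (8 of 8 lower), and none of the 8 was at 0 in any of these groups. Cxcr4 and Ackr3 were both lower in Hox-/- beside these markers at 96 h. At 120 h, with the markers lower in Hox-/-, Ackr3 was 1.98-fold lower and Cxcr4 was within 1.03-fold. In Chiron gastruloids at 96 h the markers summed to 86.85 to 109.5 CPM. Mean Cxcr4 was 101 CPM there, against 63.4 CPM in wild-type Activin A gastruloids of that time. The part of endoderm cells in these results was not tested. Pluripotency markers (8 genes) were read beside Apela, which pluripotent cells make. They summed to 784 to 916 CPM in wild-type and 228 to 244 CPM in Hox-/- endoderm cultures (8 of 8 lower, median -1.83 on the log2 scale). In Activin A gastruloids they summed to 1046 to 1072 CPM against 893 to 911 CPM at 96 h (6 of 8 lower, 1 higher) and to 81.1 to 82.5 CPM against 20.7 to 21.3 CPM at 120 h (6 of 8 lower, 1 higher, median -2.49). In wild-type Activin A gastruloids the markers were lower at 120 h than at 96 h. Mean Apela there was 20.6 CPM at 96 h and 21.4 CPM at 120 h. The part of these markers in the Apela result was not tested. Nascent mesoderm markers (6 genes, such as T and Mixl1) summed to 2536 to 2602 CPM in wild-type and 2554 to 2612 CPM in Hox-/- Activin A gastruloids at 96 h, where Aplnr and Apln were both high, with 3 of 6 called lower and 1 higher. At 120 h, when both genes were lower than at 96 h in each genotype, they summed to 475 to 484 CPM and 305 to 311 CPM, and their part was not tested. Presomitic and somitic markers (10 genes) summed to 674 to 685 CPM in wild-type and 1145 to 1148 CPM in Hox-/- ones at 120 h (8 of 10 higher), where Cxcl12 was lower in Hox-/-.

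Endothelial markers (11 genes) were read beside Apln and Aplnr, which vessels express. They summed to 92.8 to 99.2 CPM in wild-type and 13 to 13.2 CPM in Hox-/- Activin A gastruloids at 96 h, of which Flt1, a VEGF receptor, made 80 to 88.4 CPM and 3.88 to 4.3 CPM. Emcn was at 0 in both groups and Tie1 in Hox-/-. The Apln and Aplnr levels of the genotypes differed there by 1.22-fold and 1.15-fold. Of 10 endothelial markers tested at 96 h, 4 were lower in Hox-/- and 0 higher (median -0.91 on the log2 scale; 38.9% of all genes were called). At 120 h endothelial markers summed to 96.2 to 101 CPM and 72.9 to 74.4 CPM. Of 10 tested, 5 were higher in Hox-/- and 1 lower (median 0.78, 50.4% of all genes called). The sum and most of the called genes thus went in opposite directions there. In endoderm cultures they summed to 107.6 to 116.2 CPM in wild type and 37.2 to 39.8 CPM in Hox-/-, with Emcn at 0 in Hox-/-. The sum was highest in mES cells (127.8 to 129.1 CPM in wild type, 186.5 to 193 CPM in Hox-/-), where Aplnr was at the floor. Of the 11 markers, 3 in wild-type and 5 in Hox-/- mES cells were also at the floor. Cdh5 and Emcn were at 0 in both genotypes, so that sum rests on the other markers. In Chiron gastruloids at 96 h the sum was 7.64 to 9.33 CPM, with a mean of 235.5 CPM of Aplnr. The part of these markers in the results was not tested.

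The genes whose pattern was most like each of the 6 were ranked by Pearson's r over the 10 group means of log2(CPM + 1), among 3721 genes with a mean of at least 5 CPM and a highest group mean at least 4 times the lowest. The points share libraries, depth and processing, and the correlations are descriptions. For Cxcl12 they were Dnajb4 (0.985), Itga9 (0.979) and Pacc1 (0.974), and for Cxcr4 Mnx1 (0.985), Trmt9b (0.979) and Baiap2l1 (0.964). Ackr3 had weaker matches, Atg16l2 (0.886), Adamts9 (0.877) and Afap1 (0.869), with the same highest and lowest groups as Ackr3. For Apln they were Gm10073 (0.982), Tceal8 (0.981) and Defa30 (0.976). Apela was most like Adgrv1 (0.941), Tspan15 (0.935) and Fcho1 (0.902), and Aplnr most like Gria4 (0.987), Cdca7l (0.979) and Hacd1 (0.978). Among the 6 themselves, Apln and Aplnr were most alike (r = 0.86), followed by Cxcr4 and Aplnr (0.75) and Cxcl12 and Cxcr4 (0.70). Ackr3 and Apln had the lowest value (-0.49).

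Other genes of the pathways were read from lists of transducers, peptide-cutting enzymes and other ligands and receptors, and every gene named from them as higher or lower passed edgeR's test. Of the transducers (31 genes of G protein signalling, arrestins, kinases and their regulators), 2 were higher and 2 lower of 25 tested in Hox-/- mES cells, 7 and 7 of 27 in endoderm cultures, 6 and 11 of 28 in Activin A gastruloids at 96 h, and 11 and 7 of 28 at 120 h. Of all genes tested, 23.2%, 46.2%, 38.9% and 50.4% were called in these comparisons. Their medians lay between -0.10 and 0.10 on the log2 scale in these comparisons. Ranking by size over the 3 lists together named 2 of these genes, both regulators of G protein signalling. Rgs16 was lower in Hox-/- endoderm cultures (11.6 against 23.7 CPM). It was also lower in gastruloids at 96 h (1.29 against 5.75 CPM) and at 120 h (2.66 against 4.97 CPM). Rgs4 was higher at 96 h (2.53 against 0.81 CPM) and at 120 h (3.88 against 0.596 CPM). Among the transducers at 120 h, Pik3cb had the lowest log2 fold change, -2.14 (4.67 against 22.5 CPM).

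Of the 13 symbols listed for enzymes that trim or free the ligands, 12 matched and Pcsk3 did not. In Hox-/- mES cells 1 was higher and 1 lower of 6 tested, and in endoderm cultures 4 and 3 of 8. In gastruloids these counts were 1 and 3 of 8 at 96 h, and 2 and 5 of 8 at 120 h. The shares of all genes called were 23.2%, 46.2%, 38.9% and 50.4% in turn. The median of these enzymes at 120 h was -1.83, against -0.02 over all genes tested. Cpn1, the catalytic chain of carboxypeptidase N, was lower in Hox-/- in 3 cultures: 12.3-fold in endoderm cultures (1.05 against 12.9 CPM), at least 8.47-fold in gastruloids at 96 h, and 21.7-fold at 120 h (1.33 against 28.8 CPM). Dpp4, which cuts the amino end of Cxcl12, was at the floor in Hox-/- gastruloids at 120 h and at least 14.8-fold lower than the 3.98 CPM of wild type. Mmp9, a gelatinase, was 2.78-fold higher there (47.9 against 17.2 CPM), and Furin, which cuts many precursor proteins, fell by 0.68 on the log2 scale (46.6 against 80.5 CPM). Furin was higher in Hox-/- in endoderm cultures (145.7 against 100.8 CPM, log2 fold change 0.54). Mmp14, a membrane metalloproteinase, was 2.3-fold lower in Hox-/- mES cells (4.56 against 10.5 CPM) and lower in gastruloids at 96 h (39.7 against 58.2 CPM), but higher in endoderm cultures (135.6 against 83.8 CPM, log2 fold change 0.70).

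Of the 22 other ligands and receptors, 2 were higher and 0 lower of 9 in mES cells, 1 and 7 of 11 in endoderm cultures, 2 and 2 of 10 in gastruloids at 96 h and 2 and 3 of 10 at 120 h, again beside 23.2%, 46.2%, 38.9% and 50.4% of all genes. In mES cells the higher ones were Cd74, a receptor chain for Mif (2.39 against 1.14 CPM), and Ramp3, a partner of the adrenomedullin receptor (1.76 against 0.854 CPM). Ramp3 was lower in Hox-/- in endoderm cultures (1.97 against 3.11 CPM) and in gastruloids at 120 h (1.44 against 4.90 CPM). Ackr4, another scavenging chemokine receptor, was 8.33-fold lower in Hox-/- endoderm cultures (0.166 against 1.38 CPM). That Hox-/- mean lay below the level of 3 counts in these libraries (0.17 to 0.189 CPM), so the ratio is loose. Calcrl, the adrenomedullin receptor, was lower in endoderm cultures (1.53 against 3.25 CPM) and in gastruloids at 96 h (1.82 against 2.80 CPM) and 120 h (2.98 against 9.27 CPM).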

How the data were processed

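The authors deposited raw read counts for each Ensembl gene, not normalized, and FPKM values (fragments relative to depth and to transcript length) with gene symbols and mm10 positions, per the file headers. Libraries were stranded and poly(A)-selected, per the labels' protocols. cutadapt 1.16, STAR and Cufflinks 2.2.1 are named, per the submitters' processing notes; the counting tool and its use of strand are not given in the sources used here. FPKM was deposited by the authors in tables normalized separately, so it was compared only as a description between tables.

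Symbols were joined to counts by gene ID. The members, the pathway and marker lists, the contrasts and the settings were chosen with earlier results of these data known. Counts were fitted with edgeR 4.0.16 under R 4.3.3 (TMM, filterByExpr, one coefficient per group, quasi-likelihood test, Benjamini-Hochberg adjustment over all genes tested), and calls need an adjusted p under 0.05. mES and endoderm libraries had a fit each, and a joint one for contrasts between them; each gastruloid table had one fit over its 4 groups. Of the contrasts, 11 were tested and 3 were described. SE is the log2 fold change divided by the root of F. CPM is counts over the library total in M. Named genes are the 6 members, the 3 genes most like each by correlation, and list genes. Up to 2 list genes per direction and genotype contrast, called at 2-fold or more, were taken over the 3 pathway lists together. Calcrl, Furin and Pik3cb, and further contrasts of named genes, were named after their values were seen. Alternatives were RLE factors, total counts alone, 2 filters, DESeq2 1.42.0, limma 3.58.1 on log2(FPKM + 1) and log2(FPKM + 0.1), a replicate block, thinned counts, fits on only the groups compared and each library left out. The fits were tested on simulated data. Chi-square per degree of freedom between replicates was 1.37 to 10.3, above counting error, so none was merged.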

Additional observations from a re-analysis of the deposited data

Results flagged for a closer look

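The effect of time in Activin A gastruloids differed between genotypes, by edgeR's interaction test, for Cxcl12 (-1.15), Cxcr4 (2.90), Ackr3 (2.30) and Apela (-3.27, log2 scale, Hox-/- minus wild type). The Cxcl12 value uses wild-type 120 h libraries that served the choice of that gene. The effect of endoderm differentiation differed between genotypes for Cxcl12 (2.33), Ackr3 (-0.57) and Apela (-1.25). The Cxcl12 value rests on few mES counts. As single libraries were left out, it ran from 1.69 to 3.73, and the Ackr3 value from -0.70 to -0.46. Both calls were lost in some of those fits. The Apela value ran from -1.47 to -1.05.

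Some pairs of effects had opposite directions in every library, and the difference within each pair was not tested. The Hox-/- effect on Cxcl12 was 1.06 in endoderm cultures and -1.15 in Activin A gastruloids at 120 h. The Activin A effect against Chiron in wild type on Cxcr4 was -0.73 at 96 h and 1.65 at 120 h, and that on Apln was 2.84 and -0.45. The effect of time on Cxcr4 in wild type was 0.83 with Activin A and -1.57 with Chiron.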

How the results depend on the processing

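Among values of single members, 554 kept their direction and side of the threshold over the settings that left out no library, and 628 did so when 1 library was left out. The rest were, in turn, 9 and 0 values that moved, 11 and 16 that turned direction, 8 and 13 that lost a call and 3 and 3 that gained one. These tallies leave out the counts of members and of all genes, some of which moved when 1 library was left out. The count of called members in mES cells was 1 and became 0 with DESeq2, with limma on either FPKM scale and with no filter, and was 0 to 1 over left-out libraries (0 without mES Hox-/- replicate 2, wild-type replicate 1 or wild-type replicate 2). Endoderm against mES cells fell from 6 members to 2 in each genotype when at least 10 counts were needed in every library, because few members were then tested; the genotype by differentiation count was 1 to 3 over left-out libraries.

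Counts of all genes called moved as follows. In mES cells 3168 became 1098 with DESeq2, 372 and 23 with limma at FPKM pseudocounts of 0.1 and 1, and 1477 (without wild-type replicate 1) to 3372 over left-out libraries. Endoderm cultures went from 6922 to 4469 with limma on log2(FPKM + 1). Activin A gastruloids at 96 h went from 6546 to 3647 with DESeq2 and to 2787 and 2665 with limma. Activin A against Chiron at 96 h went from 10655 to 6670 with limma on log2(FPKM + 0.1), and genotype by time from 6544 to 4264 and 4193. Genes of at least 2-fold went from 3128 to 1960 and 979 (Activin A against Chiron at 120 h), and on log2(FPKM + 1) from 4144 to 1617 (Chiron over time) and from 3892 to 1858 (treatment by time). The cause was not tested.

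Directions that turned belonged to values near 0 or to low counts, and no turned value that was tested was called. Cxcl12 between genotypes at 96 h was -0.03 with at least 10 counts in every library and on only the groups compared, -0.04 with no filter, -0.05 and -0.04 with limma at pseudocounts of 0.1 and 1, -0.05 with total counts alone and -0.05 to 0.07 over left-out libraries. Cxcr4 at 120 h was -0.04 with total counts alone. Apela over time in wild type was 0.03 on both FPKM scales, 0.05 with total counts alone and -0.12 to 0.08 over left-out libraries. Over left-out libraries, mES Ackr3 ran from -0.13 to 0.09, mES Cxcr4 from -0.85 to 0.49, Apln at 120 h from -0.07 to 0.48, and Ackr3 treatment by time from -0.07 to 0.29. Genotype by differentiation ran from -1.16 to 0.17 for Cxcr4, -0.57 to 0.44 for Apln and -0.04 to 3.46 for Aplnr.

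Replicate numbers were not used to pair the samples in the main fits, and the correlation of same-numbered deviations ran from -0.18 to 0.18. With 2 libraries in most groups, such values cannot exclude that same-numbered libraries were handled together. The replicate block changed no count of called members (5 of 6 in endoderm cultures, for example) and turned Cxcl12 at 96 h to -0.00. Scaling by total counts alone moved the median of all genes to -0.13 between genotypes at 120 h (34.6% of calls higher, 49.4% with TMM) and to 0.18 for endoderm against mES cells; at 96 h it gave 42.5% of calls higher, against 57% with TMM. Depth limits Cxcl12, Apln and Aplnr in mES cells, where no library held more than 9 counts of any of them.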
